A study of Mus musculus with 4 samples.

Results

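The genotype by time difference of liver miRNAs was taken from 4 microarrays as the log2 change from ZT2 to ZT14 in *Clock* mutant mice minus the same change in wild type (WT) mice. ZT (zeitgeber time) counts the hours since lights on, so ZT2 falls early in the light phase and ZT14 early in the dark phase. Of the 611 mouse miRNAs on the array, the 123 that the scanner software called detected on all 4 arrays were used, and the other 488 have no such difference here. A value above 0 means that the ZT14 level, relative to ZT2, was higher in the mutant than in WT, and a value below 0 the reverse.

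The animals were male mice of 6 to 8 weeks, either *Clock* mutants carrying the Clock△19 allele or WT, caged singly under 12 h of light and 12 h of darkness and allowed 2 weeks to adapt. Liver RNA of 3 mice was pooled for each genotype and time point, and each pool was read on 1 array in 1 colour. The Clock△19 allele is carried in every tissue of these mice, so the liver was not the only altered tissue, and the background strain of the WT mice is not given in the sources used here. All 4 arrays were on 1 slide and were scanned together.

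miRNAs are short RNAs that guide Argonaute proteins to mRNAs, mainly by pairing through the seed, bases 2 to 8 of the miRNA, and lower the output of those mRNAs. CLOCK pairs with BMAL1 to activate genes that include its own repressors of the Per and Cry families, and this loop gives many liver transcripts a daily rhythm. The Clock△19 protein still pairs with BMAL1 but activates its targets poorly. The question put to the data was which miRNAs changed between the time points in 1 genotype and not in the other.

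No condition had a replicate, so the difference has no replicate check and no test could be made. The error given after ± is the SD of repeated spots of a probe, combined over the arrays that enter the value. It is technical only, and the spread between mice is not known. Each miRNA had 20 spots over its probes. Levels are intensities in scanner units after background subtraction, and all log2 changes were computed after dividing each array by its 75th percentile over the 123 miRNAs. Those percentiles were 537 and 339.9 units in WT at ZT2 and ZT14, and 503 and 536 units in the mutant, which left WT at ZT14 as the dimmest array. The hepatocyte miRNA miR-122 was the brightest of the 123 on 4 of 4 arrays. In a bulk liver sample, fewer cells of a type and less RNA per cell cannot be told apart.

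The mature sequences of the miRNAs on which the results turn are printed 5′ to 3′ with the seed in capitals. They come from RefSeq on GRCm38.p6, where 104 of the 123 were matched. The first 4 are shown because they carry long dinucleotide repeats and were the largest differences with a matched sequence.
miR-466i: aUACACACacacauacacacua
miR-467f: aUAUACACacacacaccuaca
miR-1187: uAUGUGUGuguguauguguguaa
miR-574-5p: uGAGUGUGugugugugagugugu
miR-466i lies at chr13:17747552-17747573 on the plus strand, within the span of Cdk13. miR-467f lies at chr11:69635419-69635439 on the minus strand, within the span of Fxr2. miR-1187 lies at chr5:82798964-82798986 on the minus strand, in no annotated gene other than its own. miR-574-5p lies at chr5:64970328-64970350 on the plus strand, within the spans of Fam114a1 and Tlr6. The 4 seeds differ from one another, although the first pair are runs of CA and the second pair runs of GU. miR-466f-3p, which had the lowest difference of all, and miR-142-3p were not matched.

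The next 4 had differences below 0 without such a repeat, and are shown to set their sequences against the repeats.
miR-706: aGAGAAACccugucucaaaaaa
miR-877*: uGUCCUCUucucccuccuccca
miR-451: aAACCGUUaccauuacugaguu
miR-144: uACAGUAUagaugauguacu
The last 4 had differences above 0.
miR-200a: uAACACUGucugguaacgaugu
miR-200b: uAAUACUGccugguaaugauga
miR-494: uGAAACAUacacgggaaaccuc
miR-342-3p: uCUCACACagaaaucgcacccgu
miR-451 and miR-144 lie 139 bases apart on chromosome 11, and miR-200a and miR-200b lie 774 bases apart on chromosome 4. The seeds of miR-200a and miR-200b are near copies of each other but are not the same 7 letters.

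After scaling, most miRNAs had nearly the same change between the time points in both genotypes. The median difference was -0.06 with an SD of 0.62 across miRNAs, and 104 of 123 were under 1.5-fold. The change from ZT2 to ZT14 had a median of -0.13 in WT and -0.17 in the mutant. Its SD across miRNAs was 0.30 in WT and 0.59 in the mutant. The bulk was not wider in the mutant: the 25th and 75th percentiles were -0.28 and -0.04 there, against -0.31 and -0.01 in WT. Changes under 1.5-fold numbered 108 in WT and 110 in the mutant. A difference of at least 2-fold (a log2 value of 1, the fold that the study's methods use) was found for 8 miRNAs below 0 (6.5%) and for 3 above 0 (2.44%). At 1.5-fold the counts were 11 below 0 (8.94%) and 8 above 0 (6.5%). The difference was larger than its spot SD for 65 miRNAs and larger than 2 spot SDs for 27.

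The balance of higher and lower calls depended on how the arrays were scaled. With no scaling the counts at 2-fold were 5 below 0 and 19 above 0, with a median of 0.69, and with scaling by spike-in probes they were 4 and 37, with a median of 0.83. The 75th percentile over all mouse miRNAs gave 6 and 5, with a median of 0.14. These scalings add 1 constant to every miRNA of an array, so they shift all differences together and leave their order as it is. Differences below are therefore to be read against the bulk of the 123 miRNAs and not as absolute amounts. Read against the median of the 123, the main scaling gave 7 differences at least 2-fold below and 3 above.

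**Figure D1:**
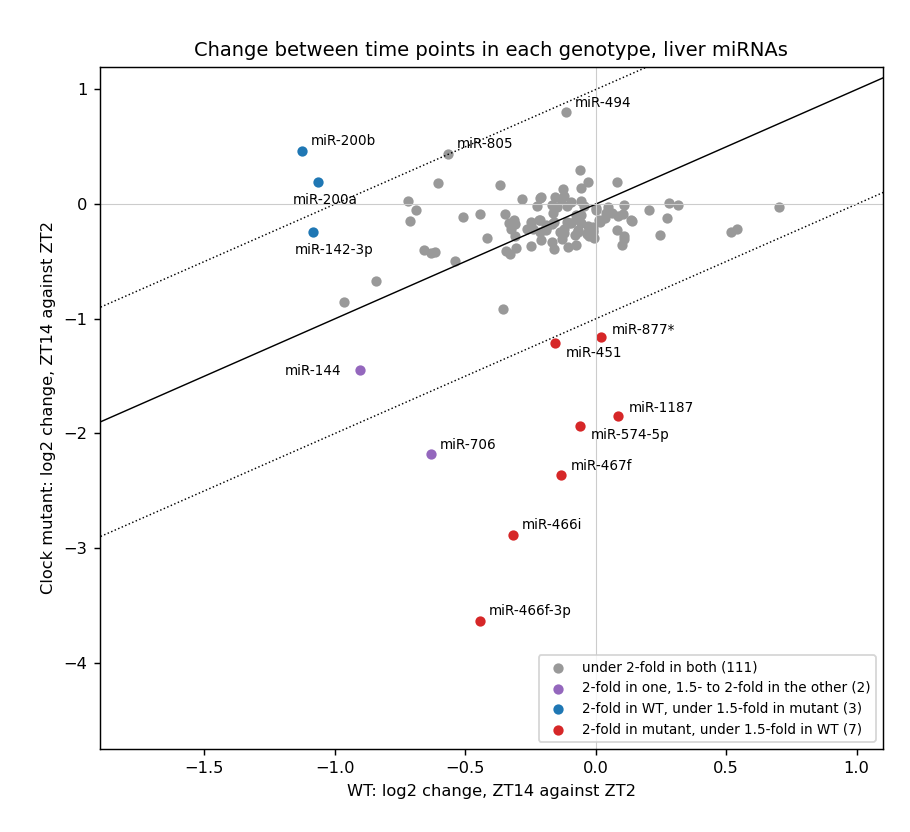
Log2 change from ZT2 to ZT14 in WT (x axis) and in the *Clock* mutant (y axis) for each of the 123 miRNAs, 1 point per miRNA. The solid line marks equal changes and the dotted lines a 2-fold difference. Below the lower dotted line lie 8 miRNAs, 7 of them with under 1.5-fold change in WT, and above the upper one lie miR-200a, miR-200b and miR-805, the last within its spot SD. miR-142-3p, at least 2-fold lower at ZT14 in WT only like miR-200a and miR-200b (blue), lies under that line at 0.84.

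Time-dependent change in 1 genotype only was defined as at least 2-fold in that genotype and under 1.5-fold in the other. In the mutant only, 7 miRNAs met this limit (5.69%), and all 7 were lower at ZT14: miR-466f-3p, miR-466i, miR-467f, miR-1187, miR-574-5p, miR-877* and miR-451. In WT only, 3 miRNAs met it (2.44%), also all lower at ZT14: miR-142-3p, miR-200a and miR-200b. Another 2, miR-706 and miR-144, were past 2-fold in the mutant and between the limits in WT, and 111 were past 2-fold in neither. Where a reading was near background only a least fall can be given. It was 1.78-fold for miR-877* in the mutant and 1.64-fold for miR-200a in WT, both short of the 2-fold limit. These calls moved with the scaling: WT-only calls numbered 0 with median scaling, with a 75th percentile taken from every mouse miRNA and with quantile normalization, 19 with no scaling and 26 with spike-in scaling. Mutant-only calls numbered 8, 7, 6, 1 and 0 in the same order. Under the main scaling, no miRNA was at least 2-fold higher at ZT14 in either genotype (0% in WT and 0% in the mutant). At least 2-fold lower were 3 in WT (2.44%) and 9 in the mutant (7.32%). These shares depend on the scaling too.

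The repeat-rich miRNAs gave the largest differences. miR-466f-3p, of a large mouse family with CA repeats, read 112 units in WT at ZT2, 52.3 in WT at ZT14, 86.2 in the mutant at ZT2 and 7.39 in the mutant at ZT14. After scaling it changed by -0.45 in WT and -3.63 in the mutant, a difference of -3.19 ± 0.68. Its probes were not well above background on the mutant array at ZT14, so on its brightest probe the mutant change is given as at least 7.78-fold lower and the difference as at least 5.66-fold. Those bounds keep the same scaling and set the bright array against the higher of the dim probe's own signal and the lowest probe well above background on the dim array.

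miR-466i, whose CA run is printed above, showed the same shape at 126 and 63.9 units in WT and 99.6 and 14.4 units in the mutant, at ZT2 and ZT14 in turn. The changes were -0.32 in WT and -2.88 in the mutant, and the difference was -2.57 ± 0.37. It too was not well above background on the mutant array at ZT14, with bounds of at least 5.63-fold for the mutant change and at least 4.40-fold for the difference. miR-467f counted as well above background on all 4 arrays, at 149 and 86.3 units in WT and 124 and 25.6 in the mutant. On the mutant array at ZT14, only 9 of its 20 spots were well above background, so its reading there was weak. miR-467f changed by -0.13 in WT and -2.37 in the mutant. The difference of -2.23 ± 0.23 did not rest on a bound but did rest on that weak reading.

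The GU-rich pair behaved alike. miR-1187 read 134 and 90.1 units in WT and 113 and 33.4 in the mutant, with changes of 0.09 and -1.84 and a difference of -1.93 ± 0.25. miR-574-5p, made from the same hairpin as miR-574-3p, read 309 and 188 units in WT and 258 and 72.0 in the mutant. Its changes were -0.06 in WT and -1.93 in the mutant, a difference of -1.87 ± 0.16. Both were well above background on all arrays, and for each of these 5 repeat-rich miRNAs the mutant array at ZT14 was the one that stood apart from the other 3.

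The letters CACACACA occur in 4 of the 1679 mature names of the RefSeq table (0.238%), and the members that hold them are miR-466i and miR-467f. UGUGUGUG, its reverse complement, occurs in 7 names (0.417%), and the members that hold it are miR-1187 and miR-574-5p. All 4 were at least 2-fold below 0, as were 8 of all 123 miRNAs (6.5%). Of the 98 matched members that hold neither CACACA nor UGUGUG, 3 were at least 2-fold below 0. With the shorter letters CACACA (0.715% of names) miR-342-3p was added, at 0.75, and with UGUGUG (1.67% of names) let-7b was added, at -0.31. Only the strand of the mature RNA was searched, the 8-letter runs were chosen after the values had been seen, and a match is a description of the sequence. Because members of the repeat-like families resemble one another, a probe for 1 of them may also read others, which was not tested.

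Of the 39 repeat-like miRNAs on the array (the miR-297, miR-466, miR-467 and miR-669 families), 3 were detected on all arrays and 24 on none. Their median difference was -2.57, against -0.06 over all 123. Their summed scaled level was 0.722 and 0.596 in WT at ZT2 and ZT14 and 0.615 and 0.0883 in the mutant. Outside the 123, 12 miRNAs were detected on every array except the mutant at ZT14. Of those 12, 5 were repeat-like, against 39 of all 611 on the array. Among the 17 detected on every array except WT at ZT14, 0 were repeat-like. Of the 5, miR-466g read 74.0 and 33.0 units in WT and 57.8 and -0.87 in the mutant. Another of the 5, miR-669c, read 57.1 and 43.3 in WT and 51.2 and 13.8 in the mutant. miR-574-3p, which shares its hairpin with miR-574-5p, was also among the 12, at 86.8 and 45.6 units in WT and 71.6 and 3.08 in the mutant. Over the 12, the median signal was 30.4 and 20.1 units in WT and 23.2 and 8.36 in the mutant. The 12 were picked for no detection in the mutant at ZT14, so their low readings there follow from the choice.

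**Figure D2:**
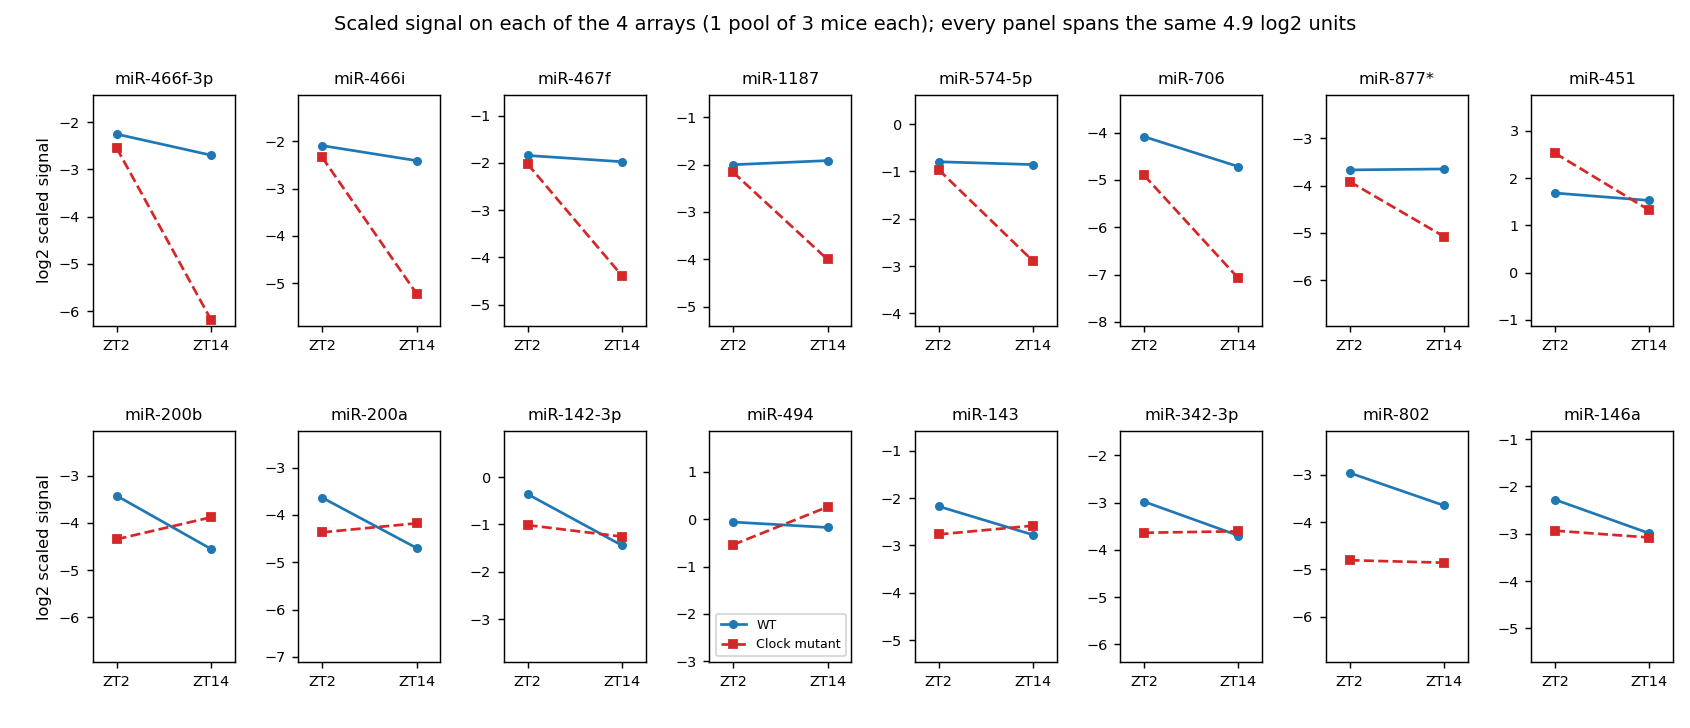
Scaled log2 signal at ZT2 and ZT14 for 16 miRNAs, with WT in blue and the *Clock* mutant in red, 1 array per point and no replicate. In the upper row the mutant change runs from -3.63 to -1.16 and the WT change from -0.63 to 0.09. In the lower row the WT change runs from -1.13 to -0.11 and the mutant change from -0.24 to 0.80, with miR-494 the highest.

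The other differences at least 2-fold below 0 had other sequences. miR-706, within the span of Wnk1, read 31.6 and 12.9 units in WT and 16.8 and 3.95 in the mutant. Its difference of -1.55 ± 1.66 was within its spot SD. The bounds were at least 2.53-fold for the mutant change and at least 1.85-fold for the difference. miR-877*, cut from an intron of Abcf1, read 42.2 and 27.1 units in WT and 33.4 and 15.9 in the mutant, with changes of 0.02 and -1.16 and a difference of -1.18 ± 0.41. It was not well above background in the mutant at ZT14, and the bounds were at least 1.78-fold for its mutant change and at least 1.80-fold for its difference. Counting bounds in place of measured values, 6 of the 8 remained past 2-fold.

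miR-451, an abundant miRNA of red blood cells, was the brightest of the 8 and had the smallest spot error. It read 1724 and 979 units in WT and 2901 and 1336 in the mutant. The changes were -0.16 in WT and -1.21 in the mutant, a difference of -1.05 ± 0.09, just past the 2-fold limit. Read against the median of all miRNAs it was -0.99, just short of that limit. Here the mutant array at ZT2, the highest of the 4, stood apart from the other 3, unlike the other 7. miR-144, made from the same primary transcript, read 60.1 and 20.4 units in WT and 73.1 and 28.6 in the mutant, with changes of -0.90 and -1.45 and a difference of -0.54 ± 0.32. It was not well above background in WT at ZT14, where its level was at least 1.68-fold lower than at ZT2. The WT fall may thus be larger than measured, which leaves the difference of miR-144 with no bound. The third erythroid marker, miR-486, was detected on the mutant array at ZT2 alone. The summed scaled level of the 2 measured erythroid miRNAs was 3.32 and 2.94 in WT and 5.91 and 2.55 in the mutant. The part of blood content in these differences was not tested.

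Above 0, the miR-200 pair led. These miRNAs are known from epithelial cells, which in liver line the bile ducts, and repress the Zeb factors. miR-200b read 49.9 and 14.5 units in WT and 24.7 and 36.3 in the mutant. It changed by -1.13 in WT and 0.47 in the mutant, in opposite directions, for a difference of 1.59 ± 0.50. miR-200a read 43.2 and 13.1 units in WT and 24.4 and 29.6 in the mutant, with changes of -1.07 and 0.19 and a difference of 1.26 ± 0.45. Neither was well above background in WT at ZT14. WT at ZT14 was therefore at least 2.02-fold below WT at ZT2 for miR-200b and at least 1.64-fold for miR-200a, and the difference was at least 2.60-fold and at least 1.71-fold. As bounds, the WT change and the difference of miR-200a were thus under 2-fold.

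Of the other 3 miRNAs of that list, miR-141 was detected in WT at ZT2 only, miR-429 in WT at ZT2 and in the mutant at ZT14, and miR-200c on no array. miR-429 lies in the same cluster as miR-200a and miR-200b, and read 18.8 and 7.48 units in WT and 11.7 and 16.8 in the mutant, an order like theirs at a signal too low for detection on 2 arrays. miR-805, an entry that maps to mitochondrial RNA, had a difference of 1.01 ± 2.57 at signals of 3.02 to 7.06 units. That difference lay within its spot SD, and its single probe measured above 0 on all arrays gave -0.07.

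The 3 measured leukocyte miRNAs lay above 0, where 72 of the 123 lay below 0. miR-142-3p, a miRNA of blood-forming cells, read 419 and 125 units in WT and 249 and 224 in the mutant. Its level was highest in WT at ZT2 and lowest in WT at ZT14, with both mutant arrays between. The changes were -1.09 in WT and -0.24 in the mutant and the difference was 0.84 ± 0.13. miR-146a, which is induced by NF-kB in innate immune cells, read 111 and 42.7 units in WT and 65.8 and 63.3 in the mutant, a difference of 0.57 ± 0.17. miR-223, a myeloid miRNA, read 186 and 82.6 units in WT and 129 and 127 in the mutant, a difference of 0.40 ± 0.15. The median over these 3 was 0.57. miR-142-5p was detected in WT at ZT2 only, and miR-150 and miR-155 on no array. The summed scaled level of the 3 was 1.33 and 0.736 in WT and 0.883 and 0.775 in the mutant.

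miR-494, from the imprinted miRNA cluster on chromosome 12, was the only miRNA over 1.5-fold higher at ZT14 in the mutant after the main scaling. It read 515 and 301 units in WT and 346 and 642 in the mutant. The changes were -0.11 in WT and 0.80 in the mutant, a difference of 0.91 ± 0.14. It was the nearest to the 2-fold limit from below, as miR-805 at 1.01 and miR-451 at -1.05 were the nearest from above. miR-143, known from smooth muscle and other mesenchymal cells, read 119 and 49.6 units in WT and 74.0 and 89.4 in the mutant, with changes of -0.60 and 0.18 and a difference of 0.79 ± 0.17. miR-342-3p, within the span of Evl, read 68.0 and 26.2 units in WT and 40.4 and 43.9 in the mutant, a difference of 0.75 ± 0.33.

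miR-802, a liver miRNA studied in glucose metabolism, had little signal in the mutant at either time. It read 69.1 and 27.1 units in WT and 18.01 and 18.48 in the mutant. The changes were -0.69 in WT and -0.05 in the mutant, and the difference was 0.64 ± 0.48. It was not well above background in the mutant at ZT14, so the mutant change is uncertain. The star strand miR-199b* followed at 0.53 ± 0.39, and miR-30e* at 0.36 ± 0.31.

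For the 3 miRNAs at least 2-fold above 0, WT at ZT2 was the array farthest from the other 3, and so it was for 7 of the 8 at 1.5-fold. That same array held the muscle miRNAs. miR-1 read 106 units in WT at ZT2 and 0.592, 4.46 and 2.44 units in WT at ZT14 and in the mutant at ZT2 and ZT14. miR-133a and miR-133b were likewise detected in WT at ZT2 only, at 21.6 and 37.6 units, and miR-206 on no array. In all, 29 miRNAs were detected on that array alone, against 1 on WT at ZT14 alone and 1 on the mutant at ZT2 alone. WT at ZT2 also had the most detected miRNAs, 193 of the 611. The counts were 138 in WT at ZT14, and 161 and 142 in the mutant at ZT2 and ZT14. The part of other tissue in the WT pool at ZT2 was not tested.

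The rest of the 12 lowest differences were smaller. Each was larger than its spot SD, let-7b* only slightly. miR-139-5p, within the span of Pde2a, read 26.1 and 23.7 units in WT and 38.9 and 34.9 in the mutant, a difference of -0.77 ± 0.45. let-7b* at -0.76 ± 0.69 and miR-702 at -0.73 ± 0.45 read 13.96 to 15.5 and 18.3 to 19.6 units. No array read let-7b* well above background, and only WT at ZT2 read miR-702 so, which leaves their changes with no order. miR-720, an entry that maps to a tRNA, was far brighter, at 8619 and 4266 units in WT and 8605 and 4870 in the mutant. Its changes were -0.36 in WT and -0.91 in the mutant, a difference of -0.56 ± 0.06, the smallest of the 12 but larger than its spot error.

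**Figure D3:**
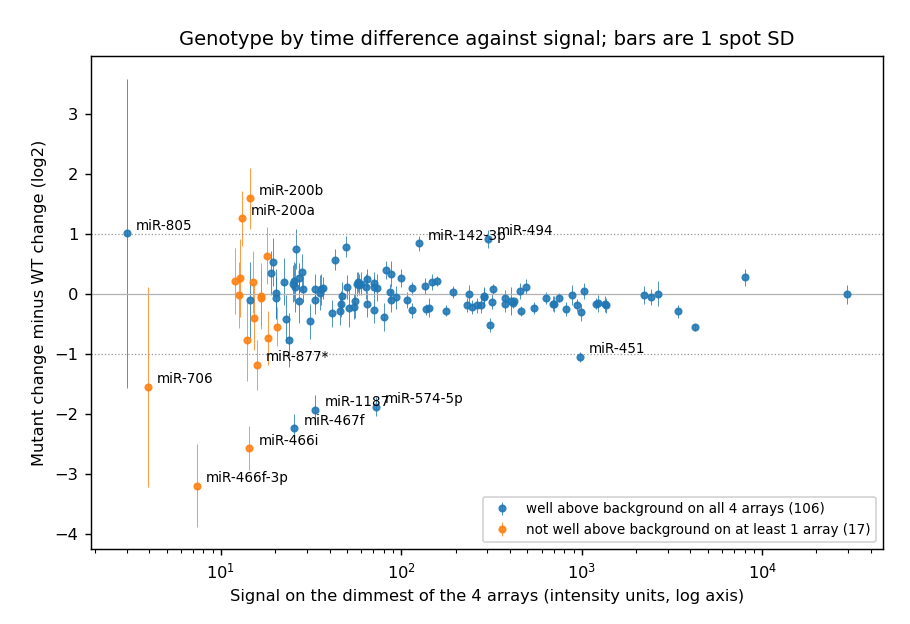
Genotype by time difference against the signal on the dimmest of the 4 arrays (log axis), with bars of 1 spot SD. Points in orange were not well above background on at least 1 array. The spread narrows as signal rises, and miR-451, miR-574-5p, miR-142-3p and miR-494 stand out at higher signal.

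The spread between miRNAs was wider at low signal. The 49 miRNAs with under 50 units on at least 1 array had an SD of 0.90 across miRNAs and held 9 of the 11 differences past 2-fold. The 74 with at least 50 units on all arrays had an SD of 0.34 and held the other 2, miR-574-5p and miR-451. A miRNA that falls to a low level on 1 array is in the first set for that reason, so the split is a description. Of the 123, 106 were well above background on all arrays. All probes of a miRNA gave the same direction for 99 of the 121 with at least 2 probes measured above 0 on every array, and for 18 of the 18 among them with a difference of at least 1.5-fold.

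After the main scaling, the change ran in opposite directions in the genotypes in 45 miRNAs. In 6 of these each change was larger than its own spot SD. Those 6 were miR-200b, miR-494 and miR-143, given above, and 3 with smaller changes of the other sign. miR-1224 changed by 0.24 in WT and -0.27 in the mutant, miR-365 by 0.14 and -0.14, and miR-26a by 0.08 and -0.10. The direction within a genotype depends on the scaling, so small changes such as these can change sign with it. Before scaling, miR-1224 read 479 and 360 units in WT and 353 and 311 in the mutant, lower at ZT14 in both.

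**Figure D4:**
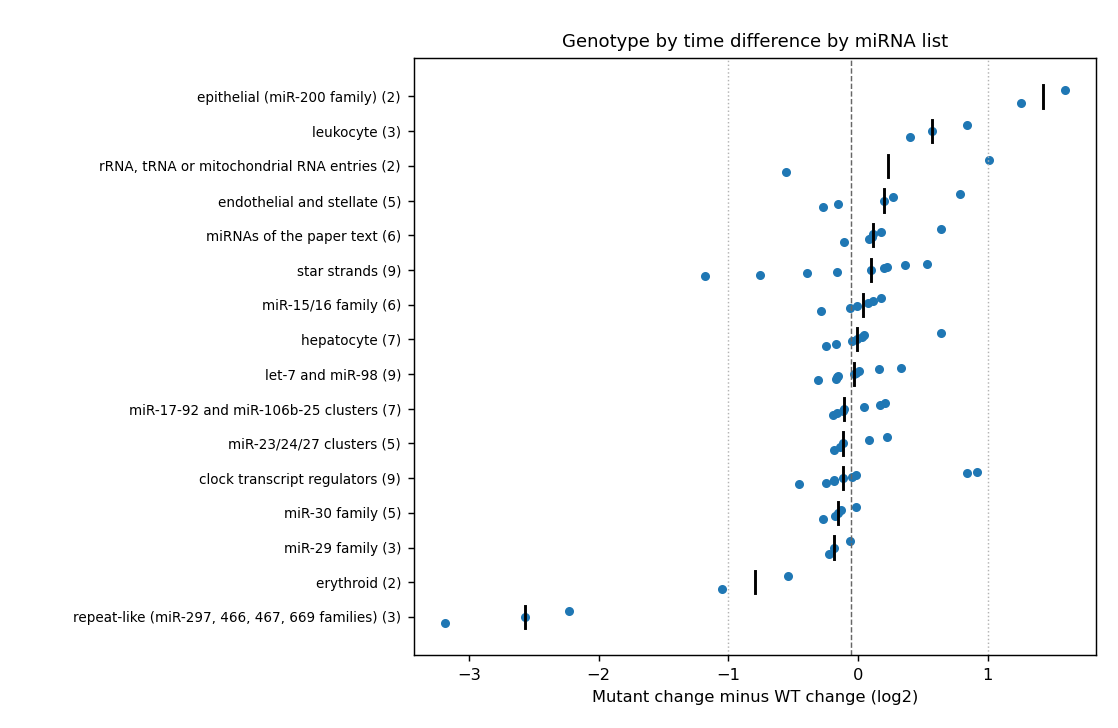
Genotype by time difference of each list member (points) with the list's median (black bar). The dashed line is the median of all 123 miRNAs, -0.06, and dotted lines mark a 2-fold difference. The repeat-like list lies far to the left, the miR-200 and leukocyte lists to the right, and most other lists lie around the dashed line.

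The hepatocyte miRNAs had nearly the same change in both genotypes. miR-122, which acts in cholesterol and lipid metabolism, read 52215 and 29413 units in WT and 55936 and 52644 in the mutant. After scaling it changed by -0.17 in WT and -0.18 in the mutant, a difference of -0.01 ± 0.15. Under other processing the difference of miR-122 ran from -0.27 to 0.88, so equal absolute changes are not shown. The 7 measured hepatocyte miRNAs had a median of -0.01. Apart from miR-802 they ran from -0.25 for miR-194 to 0.05 for miR-148a.

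Of 12 miRNAs that have been reported to act on clock transcripts, 9 were measured, with a median of -0.12, and 7 were below 0. Over all 123 miRNAs the median was -0.06 and 72 were below 0 (58.5%). miR-142-3p and miR-494 were the 2 above 0, at 0.84 and 0.91. miR-185, reported to act on Cry1 mRNA, was lowest at -0.46 ± 0.29. miR-24, miR-29a and miR-30a, reported to act on Per mRNAs, gave -0.12, -0.19 and -0.02. miR-192 and miR-194 gave -0.05 and -0.25, and miR-27b gave -0.19. miR-132 and miR-155 were detected on no array and miR-219 in WT at ZT2 only.

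The large seed families stayed close to 0. The 9 members of the let-7 and miR-98 family, with the seed GAGGUAG, ran from -0.31 for let-7b to 0.33 for let-7e with a median of -0.03, and let-7d and let-7g gave -0.17 and -0.16. The miR-15/16 family, which restrains the cell cycle and has the seed AGCAGCA, ran from -0.29 for miR-16 to 0.18 for miR-195, with a median of 0.04. All 3 members of the miR-29 family, which represses collagen mRNAs, were below 0 (as were 58.5% of all 123 miRNAs), from -0.23 for miR-29c to -0.06 for miR-29b. All 5 members of the miR-30 family were below 0 as well, from -0.27 for miR-30d to -0.02 for miR-30a. None of these families had a member past 1.5-fold.

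The growth-related clusters gave small values too. Of 9 miRNAs of the miR-17-92 and miR-106b-25 clusters, 7 were measured, between -0.19 for miR-92a and 0.20 for miR-20a, with a median of -0.11. The log2 changes of miR-19a were -0.84 in WT and -0.67 in the mutant, and those of miR-20a -0.63 and -0.43, so both were lower at ZT14 in both genotypes. The miR-23/24/27 clusters ran from -0.19 for miR-27b to 0.22 for miR-27a, with miR-23b at -0.14 and a median of -0.12. The 5 measured endothelial and stellate miRNAs had a median of 0.20, with miR-126-5p at -0.27 ± 0.21 and miR-199a-3p at 0.27 ± 0.15 beside miR-143. Of 115 star strands on the array 9 were measured, with a median of 0.10, and miR-877* was the only 1 past 2-fold, with miR-378* at -0.39 ± 0.55.

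Of the 14 miRNAs that the study names as altered at both time points, 6 were measured here, and the list was chosen by the study on these same arrays. Their median was 0.11. Apart from miR-802, they ran from -0.11 ± 0.23 for miR-100 to 0.18 ± 0.18 for miR-195, with miR-221 at 0.09, miR-34a at 0.11 and miR-497 at 0.12. miR-195 and miR-497, which share a seed and a locus, read 122 and 107 units in WT at ZT2, 70.3 and 63.7 in WT at ZT14, 135 and 120 in the mutant at ZT2, and 148 and 129 in the mutant at ZT14. Of the other 8, miR-338-5p, miR-340-3p, miR-374 and miR-423-5p were detected on all arrays but WT at ZT14. These 4 were among 17 miRNAs with that pattern, whose median signal was 16.02 and 8.98 units in WT and 14.2 and 14.2 units in the mutant, near the limit of detection. The 17 were picked for no detection in WT at ZT14, so their lower median there follows from the choice.

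Among the matched members, 40 pairs of miRNAs lay within 10000 bases of each other, and the size of the gap between the differences of a pair had a median of 0.19, against 0.29 over all 5356 pairs. The gap was under 0.5 in 36 of the 40 (90%) and in 68.8% of all pairs, and the median spot SD of a single difference was 0.18. The closer pairs were not tested against the rest. The widest gaps included let-7b* against let-7c at 0.60 and miR-451 against miR-144 at 0.51. Pairs that share a locus often share a seed or similar letters, so closeness in position and in sequence cannot be told apart here.

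**Figure D5:**
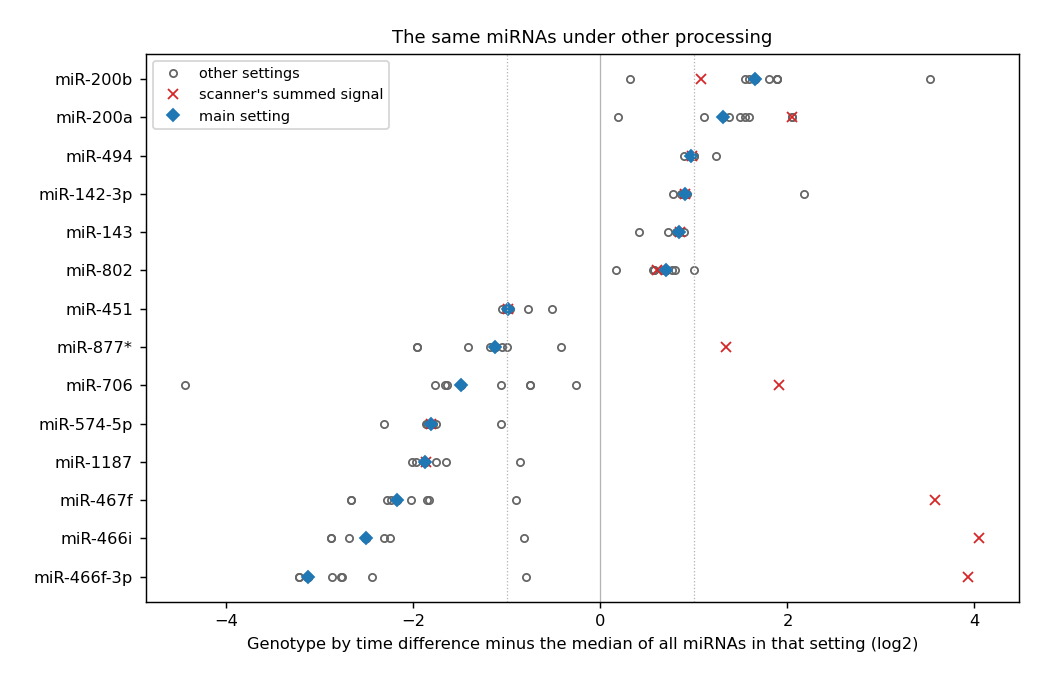
Genotype by time difference of 14 miRNAs minus the median of all miRNAs in the same setting, under the main processing (blue), the scanner's summed signal (red crosses) and the other settings (open circles). The open circles stay on the same side of 0 as the blue points, while the red crosses lie far to the right for miR-466f-3p, miR-466i, miR-467f, miR-706 and miR-877*.

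Read against the median of all miRNAs in each setting, the largest differences varied in size with the processing of the arrays. Without the scanner's own summed signal per miRNA, miR-574-5p lay between -2.32 and -1.07 and miR-1187 between -2.02 and -0.86. miR-467f lay between -2.67 and -0.90, and miR-451 between -1.05 and -0.52. Above 0, miR-142-3p lay between 0.78 and 2.18, miR-494 between 0.89 and 1.24, and miR-200b between 0.31 and 3.53.

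The scanner's summed signal reversed miR-466f-3p to 4.04, miR-466i to 4.16, miR-467f to 3.68, miR-706 to 2.02 and miR-877* to 1.45. In that column, 23 of the 123 miRNAs on the mutant array at ZT14 held more than the sum of their own detected probes by over 1%. In 23 of those 23 the excess equalled the summed signal of the detected feature that precedes the miRNA in alphabetical order, within 0.02 units or 0.01%. The same held for 8 of 8 in WT at ZT2, 22 of 22 in WT at ZT14 and 17 of 17 in the mutant at ZT2. The sum of each miRNA's own detected probes gave 7 differences at least 2-fold below 0 and 2 above 0, and all of those were also called by the main processing.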

How the data were processed

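Liver miRNAs were measured on 4 Agilent arrays, 1 per genotype and time point, each with RNA pooled from 3 mice. Feature Extraction 10.7.1.1 of Agilent read the scans, and the authors deposited its output, with the intensity of each of 13715 spots after background subtraction, with no scaling between arrays, and flags for outliers, detection and signal well above background. Their second deposited file gives 1 log2 value per miRNA and array. For all 123 miRNAs used, that file equals the log2 of the summed detected probes plus 1 number per array, within 0.001. Those numbers were -4.18 for WT and -3.27 for the mutant at ZT2, and 3.32 for both at ZT14, so its ZT2 and ZT14 columns are not on 1 scale. The paper's methods name Agi4x44PreProcess, and the normalization is not given in the sources used here.

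Processed intensities of spots without outlier flags (3.18% to 3.37% of spots were flagged) were averaged within probes and then over the probes of a miRNA. Each array was divided by its 75th percentile over the 123 miRNAs and put on the log2 scale with no pseudocount. No spot was saturated. Negative control spots averaged 5.65 to 9.53 units, and the lowest probes well above background read 21.4 to 26.2 units. Repeated spots of a probe had a median coefficient of variation of 5.34% to 6.53%. The number of arrays limits the precision. Groups came from the sample titles. There was no test: a fit of genotype, time and their interaction to 4 arrays leaves no residual degree of freedom. Counts at 2-fold stand in for calls. The scripts were tested on simulated data.

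The miRNAs named are the 12 highest and 12 lowest differences, all that changed in 1 genotype only, up to 4 of each list, the study's own 14, and those nearest the 2-fold limit. The lists were hepatocyte, clock transcript, let-7, miR-15/16, miR-17-92, miR-29, miR-30, miR-23/24/27, erythroid, leukocyte, epithelial, endothelial and stellate, muscle, rRNA or tRNA entries (2 measured, miR-720 and miR-805), repeat-like and star strand miRNAs. The members and lists were chosen with earlier results of these data known. Older array names were matched to RefSeq mature names by the known renaming of arms. Alternatives covered scaling, background correction with normexp in limma 3.58.1 (R 4.3.3), summary per miRNA, filters, the authors' table and the fold threshold. The sum of detected probes and the brightest probe were added after seeing the data. matplotlib 3.10.9, pandas 2.3.3 and numpy 2.4.6 under Python 3.11.15 did the rest. The qRT-PCR and target predictions are not analysed here.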

Additional observations from a re-analysis of the deposited data

Results flagged for a closer look

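After the main scaling, the change from ZT2 to ZT14 ran in opposite directions in the genotypes for 6 of the 123 miRNAs, each change beyond its own spot SD. The differences were 1.59 for miR-200b, 0.91 for miR-494 and 0.79 for miR-143, in each case below 0 in WT and above 0 in the mutant. They were -0.52 for miR-1224, -0.28 for miR-365 and -0.18 for miR-26a, in each case above 0 in WT and below 0 in the mutant. miR-1224, miR-365 and miR-26a were chosen after their values were seen. The direction of a change within 1 genotype depends on the scaling of the arrays, and the small changes of miR-1224, miR-365 and miR-26a can change sign with it. With 1 array per genotype and time point, these differences were not tested.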

How the results depend on the processing

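No paired analysis was possible because there was 1 array for each condition, and for the same reason no array could be left out. With 8 differences at least 2-fold below 0, 3 above 0, 3 miRNAs changed in WT alone (WT-only), 7 in the mutant alone (mutant-only) and a median of -0.06 as the base, the counts moved as follows. No scaling gave 5 below, 19 above, 19 WT-only, 1 mutant-only and a median of 0.69. Spike-in scaling gave 4 below, 37 above, 26 WT-only, 0 mutant-only and a median of 0.83. The 75th percentile over all mouse miRNAs gave 5 above, 0 WT-only and a median of 0.14. Median scaling and quantile normalization each gave 0 WT-only. Normexp background correction gave 4 below, 0 above, 0 WT-only and 4 mutant-only, and 1 below when read against its own median. The scanner's summed signal gave 12 above and 8 WT-only. The median over spots gave 24 below, 10 above, 11 WT-only, 11 mutant-only and a median of -0.24. Requiring at least 1 of every 2 spots to be well above background gave 3 below, 0 above, 0 WT-only and 3 mutant-only. Requiring a signal of 50 on all arrays gave 1 below, 1 WT-only and 2 mutant-only. The authors' log2 table gave 0 WT-only and 0 mutant-only, since its ZT2 and ZT14 columns are on different scales. At 1.5-fold there were 8 above and 11 WT-only, and at 3-fold 5 below, 1 above and 0 WT-only. The brightest probe alone gave a median of 0.16.

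Of the 19 named miRNAs with a difference of at least 1.5-fold, 11 changed sign under at least 1 alternative, and so did 38 of the 41 named with smaller differences. Under the scanner's summed signal, which adds the signal of the preceding detected feature, miR-466f-3p gave 4.04, miR-466i 4.16, miR-467f 3.68, miR-706 2.02, miR-877* 1.45 and the median of the repeat-like list, relative to all miRNAs, 3.93. miR-805 gave -0.43 with normexp, -0.067 with the median over probes, -0.96 with the median over spots, -0.20 in the authors' table and -0.067 with the sum of detected probes. miR-200a gave -0.0063 and miR-802 -0.03 with normexp. miR-702 changed sign with no scaling, spike-in scaling and the summed signal, reaching 1.76, let-7b* with spike-in scaling and the summed signal, reaching 1.63, and miR-139-5p with spike-in scaling, at 0.13. The median of the leukocyte list relative to all miRNAs was -0.21 with the median over spots. Apart from the summed signal and the authors' table, the cause was not tested. Of the results tried, 823 values stayed within their error or within 1.5 times the base count, 422 moved, and 13 values of differences past 2-fold or of list medians past 1.5-fold changed sign. Signal over background limits the dim miRNAs: 17 of the 123 were not well above background on at least 1 array, so low values on 1 array have only a bound.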
